A study of Homo sapiens with 6 samples.

Results

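Ribosome footprints of the CHL-1 line edited at SNORD50A/B were set directly against those of CHL-1 cells given AZC with MG132, without the untreated parental cells as a reference. The comparison covers 4 of the 6 samples of the series, 2 in each group. It rests on the 17882 RefSeq transcripts that have a row in both tables of values, from which 7219 genes were compared. CHL-1 is an established human melanoma cell line, and ribosome profiling sequences the stretches of messenger that ribosomes protect from nuclease. The edited group carries a CRISPR edit at SNORD50A/B, a pair of genes for box C/D small nucleolar RNAs, and received no drug. The other group is the parental line, without that edit, given 10 mM AZC (azetidine-2-carboxylic acid) and 20 µM MG132 for 20 minutes.

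The edit and the treatment therefore differ together, and which of them a difference belongs to cannot be told apart here. In each group 1 of the 2 libraries is labelled as having had ribosomal RNA removed. The values come as 1 table per condition, so there is no spread between replicates and no test. A difference is called past 2-fold by its size alone, which is a log2 ratio of at least 1 or at most −1. The sources used here do not say whether the edited cells are 1 clone, and no line carrying a control edit is among the samples. Only protein-coding RefSeq transcripts were read, so SNHG5, the noncoding host gene of both small nucleolar RNAs, could have no row. The edit could not be checked here.

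Box C/D small nucleolar RNAs guide 2′-O-methylation of ribosomal and other RNAs. AZC is a proline analog that is built into new proteins and makes them misfold, and MG132 blocks the proteasome, which removes misfolded proteins. Misfolded protein activates the heat shock response, which makes chaperones, and kinases of the eIF2 factor, which lower initiation on most messengers. A few messengers with short reading frames in the 5′ UTR, ATF4 first among them, are then translated more, an arrangement named the integrated stress response.

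The table of the edited line lists 19783 transcripts and that of treated cells lists 18409, with summed depths, in bases under footprints, of about 586500000 and 367300000. These are bases and not reads, so no counting interval could be given. The level of a gene is its depth over 5′ UTR, coding sequence and 3′ UTR per 1000000 of its table's total. No messenger amounts entered the comparison, so a level does not separate the amount of a messenger from how much it was translated. A gene was compared where its depth exceeded 3697 for the edited line and 2614 for treated cells, which are levels of 6.30 and 7.12. The melanocyte markers were thin in both tables. SOX10, the transcription factor of the melanocyte and glial lineage, had levels of 353 in the edited line and 323 in treated cells. MLANA had 1.97 and 2.04, PMEL was listed only in treated cells at 2.48, and 7 of the 20 listed melanocyte genes had no row. Of 20 markers of keratinocytes, blood, endothelium and fibroblasts, 15 had no row and 2 were compared, KRT10 (7.77 and 8.28) and KRT18 (10.8 and 17.5).

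Of the 7219 genes compared, 470 (6.51%) were past 2-fold, of which 169 (2.34% of the genes compared) were higher in treated cells and all others (4.17%) higher in the edited line. The median log2 ratio over all genes was 0.06. Those higher in treated cells included 7 of the 18 compared genes of the integrated stress response and 10 of the 19 compared immediate early genes. Those higher in the edited line included 6 of 85 ribosomal proteins, a share not far from the 4.17% of all genes. Of these 6, RPL26 and RPLP1 fell below 2-fold under both other scalings. Also higher there were 4 of 29 other messengers regulated like them, PABPC1 among these, and ODC1. In the edited line, genes past 2-fold higher had footprints in a median of 137 of 200 coding bins, against 118 in treated cells. Genes past 2-fold lower in the edited line had them in 88 bins there, against 170 in treated cells. Over all genes compared the medians were 136 bins in the edited line and 162 in treated cells. The ratio taken from the first 100 coding bins and that from the last 100 correlated across genes with Pearson's r 0.34 and Spearman's rho 0.38, given as a description since both come from the same libraries. That r was 0.11 in the lowest quartile of levels and 0.58 in the highest. Among all genes compared, whether or not called above, 235 (3.26%) were past 2-fold higher in the edited line in both sets of bins. For treated cells the number was 81 (1.12%). Fewer of the called genes were past 2-fold in both sets. They were 186 of those called higher in the edited line and 69 of the 169 called higher in treated cells.

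**Figure D1:**
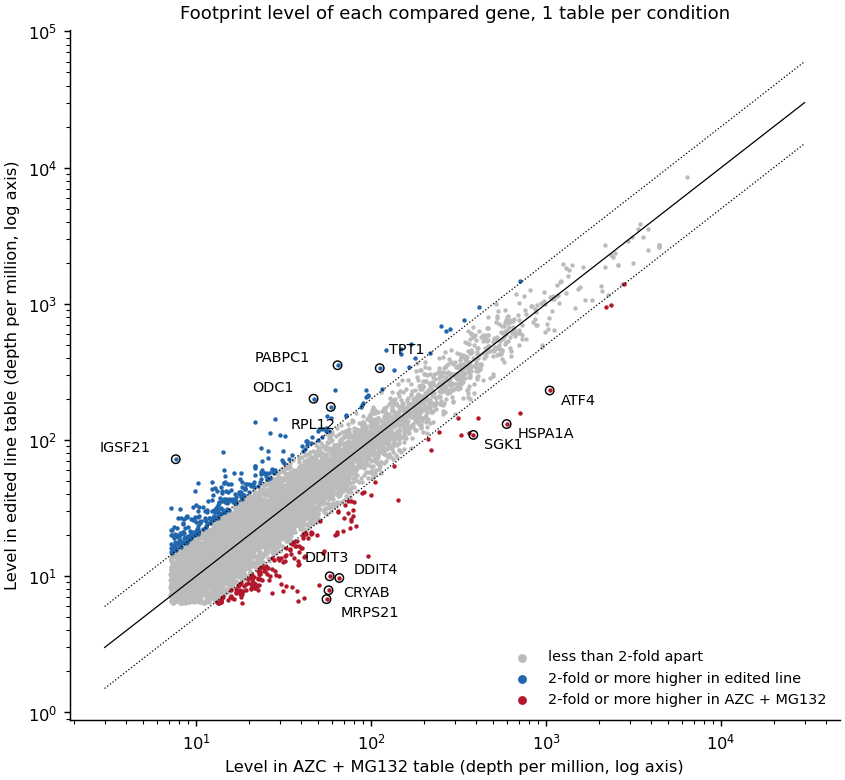
Level of each of the 7219 compared genes (depth per 1000000 of its table, log axes) in AZC + MG132 treated cells (x) and in the SNORD50A/B edited line (y); the solid line marks equal levels and the dotted lines 2-fold. The genes above the upper dotted line are blue and the 169 below the lower one red; PABPC1 and ODC1 lie far above, ATF4, HSPA1A and SGK1 far below.

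Genes of the integrated stress response stood lower in the edited line. Of 31 genes listed for it 18 were compared, with a median log2 ratio of −0.70 beside 0.06 over all genes. Of the 18, 7 were past 2-fold higher in treated cells (all genes, 2.34%) and 0 in the edited line (all genes, 4.17%). ATF4, the transcription factor at the centre of the response, had a level of 231 in the edited line and 1048.5 in treated cells, a log2 ratio of −2.19. DDIT3 (CHOP), a transcription factor downstream of ATF4, had 10.0 and 58.0 (log2 ratio −2.53). DDIT4, an inhibitor of the growth kinase complex mTORC1, had 9.71 and 65.8 (−2.76). All 3 messengers were low in the edited line on both sides of the coding sequence. ATF4 gave −3.13 over the first 100 coding bins and −4.60 over the last 100, DDIT3 −2.33 and −4.37, and DDIT4 −3.36 and −2.23.

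The other 4 past 2-fold were HERPUD1, which serves the degradation of proteins from the endoplasmic reticulum, ATF5, PPP1R15B and CEBPB. HERPUD1 had levels of 21.1 and 63.7 (log2 ratio −1.60) and PPP1R15B, a subunit that leads a phosphatase to eIF2, 35.2 and 79.6 (−1.18). ATF5, a relative of ATF4, had 14.1 and 41.8 (−1.57), with footprints in 18 of 200 coding bins in the edited line. CEBPB, a partner of ATF4 on DNA, had 8.43 and 18.8 (−1.16). The amino acid and folate enzymes of the same list lay close to equal. PSAT1, an enzyme of serine synthesis, had 205 and 201, SHMT2, of mitochondrial folate metabolism, 170 and 176, and MTHFD2, which acts in the same pathway, 129 and 123. ASNS, asparagine synthetase, had 52.4 and 61.5. SLC7A5 and SLC3A2, which together form an amino acid transporter, had log2 ratios of 0.21 and −0.21.

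Several members left out of that comparison had low levels in the edited line. PPP1R15A (GADD34), the inducible eIF2 phosphatase subunit, had a level of 2.79 in the edited line, below the minimum, and 44.8 in treated cells. CHAC1, which degrades glutathione, and ATF3, a transcription factor, were listed only in treated cells, at 27.1 and 8.92. SLC7A11, the cystine transporter, was listed only in the edited line, at 4.37. Of the 13 members not compared, 4 were below the minimum only in the edited line and 1 only in treated cells. TRIB3, an ATF4 target, was below it in both, at 2.17 and 4.91. The kinases that act on eIF2, GCN1 and subunits of eIF2 and eIF2B form a list of 14, all compared, with a median of 0.14. The only one past 2-fold was EIF2AK2 (PKR), a kinase that senses double-stranded RNA, at 77.3 in the edited line and 35.1 in treated cells (log2 ratio 1.14, 0.73 from the last 100 coding bins with the tables rescaled to them).

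Footprints on ATF4 were spread differently over the messenger in the 2 conditions. Its coding level was 51.8 in the edited line and 692 in treated cells (log2 ratio −3.74), while that of its 5′ UTR was 178 and 332 (−0.90). The 5′ UTR thus held 344% of the coding depth in the edited line and 48.1% in treated cells. Most of the 5′ UTR depth lay in the first 20 of 100 bins, with levels of 155 and 269. In the coding sequence of the edited line the first 20 bins held 25.9, and the other 9 windows of 20 bins between 0.636 and 6.4. In treated cells the same 10 windows held between 26.1 and 97.3. ATF5 showed the same order, with 5′ UTR depth at 217% of coding in the edited line and 88.7% in treated cells, and so did DDIT3, with 146% and 81.6%. It was not the order of the whole stress list, in which 5 of 18 genes had a larger 5′ UTR share of coding depth in the edited line, and the median log2 of that ratio was −0.91 beside −0.79 over all genes. PPP1R15B had 32.3% in the edited line and 51.1% in treated cells, CEBPB 7.55% and 14.5%, and HERPUD1 11.7% and 34.9%.

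Messengers known to carry upstream reading frames were taken as a list of 26, of which 20 were compared. The list shares ATF4, ATF5, DDIT3, PPP1R15B, CEBPB and IFRD1 with the stress genes above, so its values are not separate from theirs. Their median log2 ratio was −0.68. Past 2-fold were 1 higher in the edited line (ODC1) and 5 higher in treated cells, all 5 of them among those shared genes. The shares of all genes were 4.17% and 2.34%. Over the list the 5′ UTR held a median 46.4% of coding depth in the edited line and 45.4% in treated cells, while over all genes the medians were 6.46% and 11.8%. IFRD1, a transcriptional coregulator, had 56.9 and 114, just short of 2-fold. Its 5′ UTR levels were 27.4 and 26.3 and its coding levels 28.7 and 85.1. SLC35A4 had no coding footprint in the edited line and a coding level of 4.42 in treated cells, beside 5′ UTR levels of 13.8 and 18.3. The 5 members above 0 included ODC1, EIF1, an initiation factor that sets start codon choice, at 516 and 354 (0.54), and MDM2, the p53 ubiquitin ligase, at 39.4 and 27.9 (0.50).

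**Figure D2:**
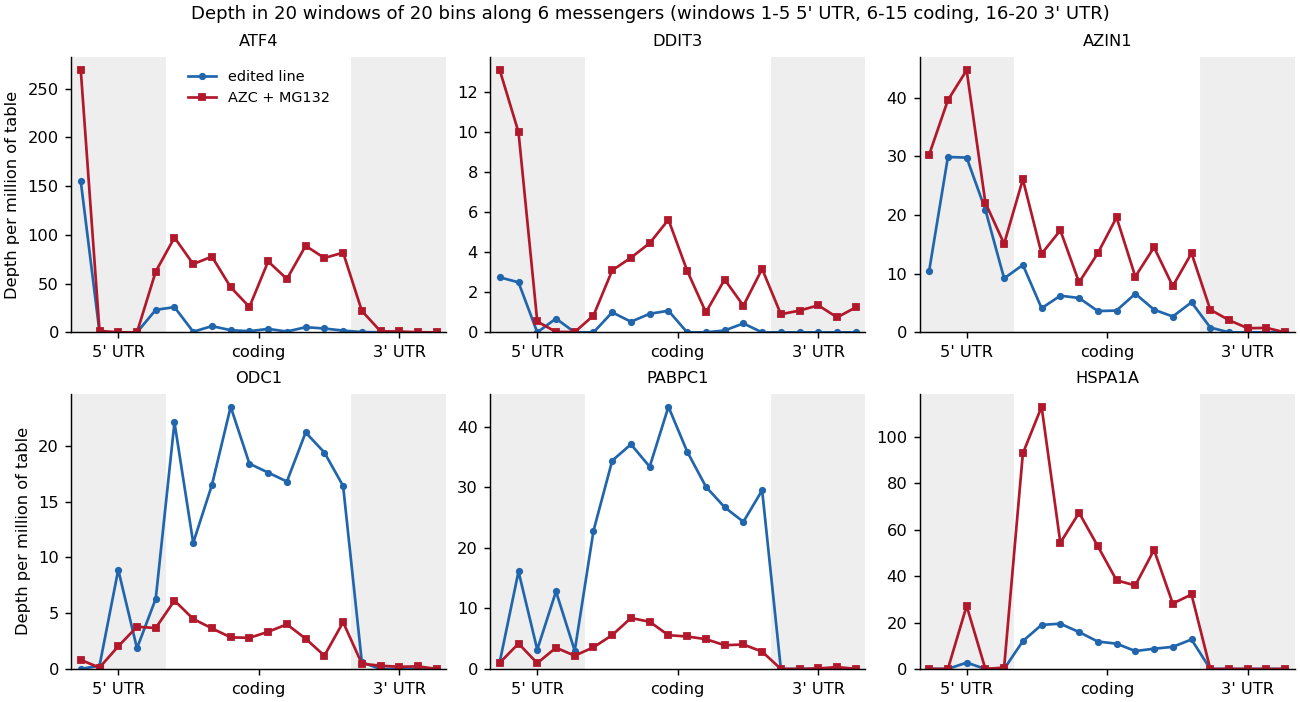
Depth per 1000000 of the table in 20 windows of 20 bins along 6 messengers (grey, 5′ UTR and 3′ UTR; white, coding sequence), edited line in blue circles and AZC + MG132 in red squares; each panel has its own y axis from 0. On ATF4 the coding windows hold 0.636 to 25.9 in the edited line against 26.1 to 97.3, whereas the first 5′ UTR window holds 155 against 269; ODC1 and PABPC1 show the reverse order over the coding sequence.

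A short composite element bound by C/EBP and ATF factors was sought in the RefSeq promoters of the stress genes, as TGATG, any base and AA, on both strands. Promoters run from 250 bases before to 50 after the transcript start (assembly GRCh38.p14) and exist for 6057 of the 7219 compared genes. The element was in 4 of 16 stress response promoters (25%), in 1.62% of the compared genes' promoters and in 3.67% of all 27305. Of those 4 genes, 2 were past 2-fold, HERPUD1 and PPP1R15B, and 2 were not, ASNS and SLC3A2. The 30 bases around each match are shown 5′ to 3′ on the gene's strand, with the match in capitals, to let the matched letters be compared between the genes that did and did not differ.
HERPUD1, chr16:56931955-56931984, plus strand: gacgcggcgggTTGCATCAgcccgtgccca
PPP1R15B, chr1:204412026-204412055, minus strand: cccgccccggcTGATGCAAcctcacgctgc
ASNS, chr7:97872458-97872487, minus strand: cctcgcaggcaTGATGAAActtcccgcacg
SLC3A2, chr11:62881719-62881748, plus strand: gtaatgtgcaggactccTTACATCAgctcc
A match describes these letters only. It is no measure of binding.

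Immediate early genes, which cells transcribe within minutes of a stimulus or stress, had the lowest median of the 32 lists, −1.0 over the 19 of 37 members compared. Treated cells were past 2-fold higher for 10 of them and the edited line for 0, beside 2.34% and 4.17% of all genes. FOS, a subunit of the AP-1 transcription factor, had a level of 23.2 in the edited line and 81.6 in treated cells (log2 ratio −1.82). DUSP1 and DUSP2, phosphatases that switch off MAP kinases, had 14.8 against 53.1 (−1.85) and 15.2 against 53.8 (−1.83). SGK1, a kinase induced by serum and steroids, had 109 against 384 (−1.82). IER2, KLF10, KLF6, GADD45B, CCN1 and ZFP36L1 were the remaining 6, with log2 ratios from −1.0 to −1.85. CCN1 and ZFP36L1 fell short of 2-fold when the deposited values were used without correction, and CCN1 also in the last 100 coding bins with the tables rescaled to them, at −0.51.

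Not every member of the list was lower in the edited line. NR4A1, a nuclear receptor, had levels of 59.2 and 58.1, KLF4 10.8 and 10.4, FOSL2 12.2 and 11.2, and MYC 89.8 and 112 (log2 ratio −0.32). Among the 18 members not compared, 5 were below the minimum only in the edited line and 0 only in treated cells. JUN, the AP-1 partner of FOS, had 5.04 in the edited line and 24.1 in treated cells, EGR1 3.42 and 15.2, IER5 3.90 and 18, and ZFP36, which destabilises AU-rich messengers, 1.38 and 9.61. EGR3, KLF2 and PLK2 were listed only in treated cells, at 8.74, 1.76 and 4.69. Outside that list, PMAIP1 (NOXA), a cell death gene, had 3.81 and 26.6, and HMOX1, heme oxygenase, 1.0 and 12.2, both below the minimum in the edited line.

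Cytosolic chaperones divided into a few inducible genes with large differences and many abundant ones close to equal. Of 38 compared, 5 were past 2-fold higher in treated cells and 1, DNAJB2, in the edited line, beside 2.34% and 4.17% of all genes. The median was 0.07 (−0.02 from coding bins only). HSPA1A, the inducible HSP70, had a level of 131 in the edited line and 595 in treated cells (log2 ratio −2.19). HSPA1B, whose coding sequence is nearly the same so that their reads cannot be separated, had 157 and 712 (−2.18). DNAJB1, the HSP40 partner of HSP70, had 85.2 and 219 (−1.36), and BAG3, an HSP70 cochaperone, 29.8 and 64.7 (−1.12). CRYAB, a small heat shock protein, had 7.89 and 57.1 (−2.85). HSPA6, a strictly inducible HSP70, was listed only in treated cells, at 25.4.

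The constitutive chaperones differed less. HSPA8, the constitutive HSP70, had levels of 2486.8 and 3814.1 (log2 ratio −0.62), HSP90AA1 3068.8 and 3558.5 (−0.21) and HSP90AB1 3847.5 and 3456.1 (0.15). The 8 subunits of the TRiC chaperonin, which folds actin and tubulin, lay between −0.32 and 0.30. HSPD1, the mitochondrial HSP60, was higher in the edited line at 1973.6 against 1257.2 (0.65), and HSF1, the transcription factor of the heat shock response, at 40.4 against 22.4 (0.85), both short of 2-fold. DNAJB2 had 20.6 and 8.54 (1.27). Chaperones of the endoplasmic reticulum had a median of −0.10 over 27 genes, with HERPUD1 alone past 2-fold. HSPA5 (BiP), the reticulum's HSP70, had 1153.1 and 2258.1, a log2 ratio of −0.97. XBP1 had 41.7 and 76.8 (−0.88), and HSP90B1 1604.1 and 1340.4 (0.26).

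The heat shock element was sought in both orientations as 3 alternating GAA and TTC units with any 2 bases between them. It was in 4 of 33 chaperone promoters (12.1%), in 0.330% of the promoters of compared genes and in 0.487% of all 27305. Of the 38 compared chaperones, only 33 had a promoter entry. Only this exact pattern was sought, so a gene without a match may still carry a site. The sites of HSPA8 (log2 ratio −0.62) and CHORDC1 (0.07), a cochaperone of HSP90, are shown with the match in capitals because the same kind of match stood beside different ratios. DNAJA1 (−0.26) and DNAJB6 (0.23) were the other 2, so that none of the 4 was past 2-fold.
HSPA8, chr11:123062345-123062374, minus strand: gcgagcttGAAAGTTCCAGAAcgctgcggt
CHORDC1, chr11:90223088-90223117, minus strand: cgcgaccgGAAAATTCGCGAAggttcctga
A TATA box, sought as TATAAA, was in 14.2% of promoters of genes past 2-fold higher in treated cells, in 3.23% of those past 2-fold higher in the edited line and in 3.35% of all compared.

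Proteasome and ubiquitin genes, which cells raise when the proteasome is blocked for longer, had a median of −0.06 over 45 genes. Past 2-fold in either direction were 0 of them, beside 6.51% of all genes. PSMD4 had levels of 124 and 173, PSMB5, the catalytic subunit that MG132 binds, 118 and 181 (log2 ratio −0.62), and PSMD11 155 and 99.5 (0.64). The 25 aminoacyl-tRNA synthetases compared had a median of 0.14, also with 0 past 2-fold beside that 6.51%. In a list of 25 a count of 0 lies near that share. Histones of the replication-dependent clusters gave a median of −0.43 over 31 genes, 27 of them below 0, beside 3312 of all 7219 genes. H4C16, at 41.3 and 91.6 (−1.15), and H2BC18, at 1394.7 and 2789.5 (−1.0, and −0.98 from the values as deposited), were past 2-fold. Those 2 of 31 were higher in treated cells, beside 2.34% of all genes. Histone copies share most of their sequence and their separate values are uncertain. Enzymes of the mevalonate pathway, which makes cholesterol and the lipid anchors of RAS proteins, had a median of −0.34 over 26 genes. Past 2-fold were 0 of them, beside 6.51% of all genes. MVD was at 13 and 26.0, just short of 2-fold, LSS at 10.2 and 17.9, and FDPS at 80.5 and 117.

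**Figure D3:**
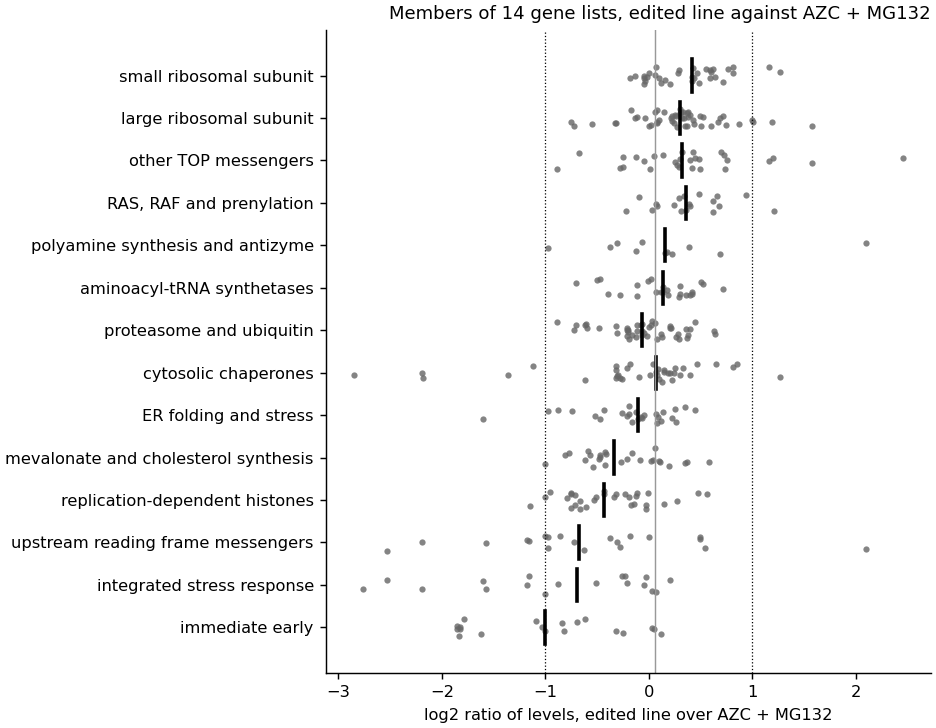
Log2 ratio of levels, edited line over AZC + MG132, for every compared member of 14 gene lists (points, spread vertically for sight only), with the list's median as a black bar, the median of all genes as the grey line at 0.06 and 2-fold as dotted lines. Medians run from −1.0 for immediate early genes to 0.42 for the small ribosomal subunit.

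Ribosomal protein messengers stood slightly and broadly higher in the edited line. Of 85 compared, 69 had a ratio above 0, beside 3907 of all 7219 genes. Their median was 0.31 beside 0.06 over all genes. Past 2-fold were 6 higher in the edited line (all genes, 4.17%) and 0 in treated cells (all genes, 2.34%). The median was 0.30 for the 51 genes of the large subunit and 0.42 for the 34 of the small subunit. RPL12, of the ribosomal stalk base, had a level of 175 in the edited line and 58.8 in treated cells (log2 ratio 1.58). RPS12 had 327 and 135 (1.27), RPL37A 946 and 414 (1.19) and RPS24 760 and 340 (1.16). RPS24 was below 2-fold from coding bins only (0.97) and both it (0.71) and RPL37A (0.99) from the last 100 coding bins with the tables rescaled to them. RPL26, at 434 and 216 (1.01), and RPLP1, at 174 and 87.0 (1.0), were close to the limit and fell below it under both other scalings. The difference was larger toward the stop codon, with a median of 0.16 over the first 100 coding bins and 0.67 over the last 100, where all genes had −0.05 and 0.34. The members lowest in the edited line were RPL22L1 at 26.4 and 44.5 (−0.75) and RPL18 at 204 and 336 (−0.72).

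The messengers of ribosomal proteins and elongation factors belong to the TOP class, whose first nucleotides are a cytosine and a run of further pyrimidines through which their translation is tied to mTORC1. The other TOP messengers, mainly elongation and initiation factors, had a median of 0.32 over 29 genes. In this group 4 were past 2-fold higher in the edited line and 0 in treated cells, beside 4.17% and 2.34% of all genes. PABPC1, the poly(A)-binding protein, had 354 and 64.3 (log2 ratio 2.46) and TPT1 (TCTP), a growth-associated protein, 337 and 112 (1.58). EEF1G had 652 and 284 (1.20) and EEF1B2 398 and 178 (1.16), both subunits of the exchange factor of eEF1A. EEF1A1, the elongation factor itself, had 8479.7 and 6352.9 (0.42), and EEF2, which moves the ribosome along, 1914.0 and 1402.3 (0.45). PABPC3, a near copy of PABPC1, had 135 and 21.8 (2.62), and reads of both cannot be separated. EIF4A2, a helicase, at 113 and 210 (−0.89), and EIF3E, at 620 and 986 (−0.67), were lower in the edited line.

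The first 20 bases of RefSeq transcripts show how these messengers start, with the leading pyrimidine run in capitals where it begins with a cytosine. The first 5 lines are genes past 2-fold higher in the edited line, EEF1A1 and EEF2 follow as the most abundant TOP factors, and EEF1G and ODC1 stand for genes past 2-fold without such a run at the annotated start.
TPT1, chr13:45341164-45341183, minus strand: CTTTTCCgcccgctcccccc
RPL12, chr9:127451387-127451406, minus strand: CCTCTCggctttcggctcgg
RPS12, chr6:132814569-132814588, plus strand: CTCTTTCCCTgccgccgccg
RPL37A, chr2:216498844-216498863, plus strand: CTTTCTgggctcggacctag
RPS24, chr10:78033863-78033882, plus strand: CTCTTTTCCTCCTTggctgt
EEF1A1, chr6:73521013-73521032, minus strand: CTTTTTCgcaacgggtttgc
EEF2, chr19:3985444-3985463, minus strand: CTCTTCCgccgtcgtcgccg
EEF1G, chr11:62573872-62573891, minus strand: actttgcggcagcgccgaga
ODC1, chr2:10448308-10448327, minus strand: gtcagtccctcctgtagccg

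A start with a cytosine and at least 4 further pyrimidines was found for 371 of 6057 compared genes with a promoter entry (6.13%), and for 4.04% of all promoters. It was found for 10.5% of genes past 2-fold higher in the edited line and 2.99% of those higher in treated cells. Without ribosomal proteins the shares were 8.26% in the genes higher in the edited line and 5.44% in the genes compared. Genes with such a start had a median log2 ratio of 0.14 and those without 0.05. Among ribosomal proteins the medians were 0.34 for the 45 with such a start and 0.25 for the 23 without. Runs of the same length stood beside different ratios, as TPT1 (1.58) and EEF1A1 (0.42) both begin with 7 pyrimidines.

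ODC1, ornithine decarboxylase, makes the first polyamine, and its protein is destroyed by the proteasome with the help of the antizyme OAZ1. ODC1 had a level of 201 in the edited line and 46.9 in treated cells (log2 ratio 2.10), with 2.21 over the first 100 coding bins and 2.57 over the last 100. Its 10 coding windows held between 11.3 and 23.5 in the edited line and between 1.19 and 6.13 in treated cells. These are stretches of 1 messenger and not replicates. AZIN1, which binds antizyme in place of ornithine decarboxylase, went the other way with 155 and 303 (−0.97). Its coding levels were 53.4 and 144 (−1.43) and its 5′ UTR levels 100 and 152 (−0.60). OAZ1 itself, whose translation needs a frameshift that polyamines favour, had 242 and 251 (−0.06). The first 20 coding bins of OAZ1 held 107 and 93.5 and its lowest coding window 0.621 and 1.69. SRM, spermidine synthase, had 80.1 and 49.8 (0.69), AMD1 26.2 and 32.4 (−0.31), and the list of 11 had a median of 0.16, with only ODC1 past 2-fold. That median went below 0 under 3 of 10 alternatives.

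Genes of RAS signalling and of RAS prenylation, the lipid attachment that holds RAS at membranes, had a median of 0.36 over the 19 of 26 compared. Ratios were above 0 for 17 of them, beside 3907 of all 7219 genes. NRAS had levels of 54.6 in the edited line and 52.0 in treated cells (log2 ratio 0.07). HRAS was below the minimum in both tables, at 5.85 and 5.87. MAP2K2, a kinase below RAF, was the only one past 2-fold, at 56.8 and 24.5 (1.21), but at 0.70 in the lowest of 9 alternatives. NF1, which inactivates RAS, had 48.5 and 25.2 (0.94). The farnesyltransferase subunits FNTA and FNTB had 18.6 against 15.3 and 28.2 against 26.7. Of the genes that ERK signalling induces, 8 of 19 were compared and 0 were past 2-fold, beside 6.51% of all genes. DUSP6 was at 24.3 and 43.6 (−0.84) and CCND1, cyclin D1, at 161 and 110 (0.54).

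Lineage genes of neural crest and glia held some of the largest differences in both directions. Of 14 compared, 4 were past 2-fold higher in the edited line and 3 in treated cells, beside 4.17% and 2.34% of all genes. IGSF21, an adhesion protein of the immunoglobulin family, had a level of 72.3 in the edited line and 7.65 in treated cells, a log2 ratio of 3.24. BCAS1, a marker of cells that begin to myelinate, had 113 and 26.3 (2.11), DNER, a Notch ligand of neurons, 427 and 149 (1.52), and SEMA6A, a guidance cue, 62.0 and 21.8 (1.51). CDH19, a cadherin of Schwann cell precursors, had 144 and 409 (−1.51). LOXL2, a lysyl oxidase, had 8.42 and 21 (−1.32, and −0.86 from the last 100 coding bins with the tables rescaled to them). Of the melanocyte genes 8 were compared, with a median of 0.13. Past 2-fold were 2 higher in the edited line and 0 in treated cells, beside the same shares of all genes. OCA2, a melanosome transporter, had 36.3 and 12.3 (1.56). DCT, an enzyme of melanin synthesis, had 15.7 and 7.55 (1.06, below 2-fold under 3 of 8 alternatives). The 20 collagen and matrix genes compared had a median of −0.05, which changed sign under 3 of 10 alternatives. Ratios were above 0 for 9 and below 0 for 11. Past 2-fold were 1 higher in the edited line and 2 in treated cells, beside 4.17% and 2.34% of all genes. These were MATN2 at 41.5 and 17.7 (1.23, and 0.62 from the last 100 coding bins with the tables rescaled to them), ECM1 at 6.59 and 38.2 (−2.53) and COL5A2 at 64.1 and 135 (−1.08). In bulk lysates fewer cells of a kind, less RNA per cell and less translation of that RNA cannot be told apart. Nor can the edited line and the treatment here.

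Among genes above the median level with the same direction at both ends of the coding sequence, the 15 highest in the edited line had log2 ratios from 1.85 (ATP1B1) to 3.24 (IGSF21). Beside those named above they include CYFIP2, a subunit of the actin-regulating WAVE complex, at levels of 143 and 28.1 (2.35), and GIT1, a scaffold at focal adhesions, at 48.0 and 10.2 (2.24). NSD3, a histone methyltransferase, had 60.0 and 14.4 (2.06) and ATP13A3, a polyamine transporter, 54.8 and 14.6 (1.91). ITIH5, a hyaluronan-associated protein, had 455 and 121 (1.91) and TRIM48, whose family shares reads, 82.1 and 14.2 (2.53). The lowest was MRPS21, a protein of the mitochondrial ribosome, at 6.79 and 55.6 (−3.03), though the 48 mitochondrial ribosomal proteins had a median of 0.0051. CNDP1, which cleaves carnosine, had 14.2 and 95.7 (−2.75), TNFSF8, the CD30 ligand, 36.5 and 142 (−1.96), and AHNAK, a very large scaffold protein, 22.5 and 75.8 (−1.75). Of the cytoskeleton genes, ACTG1 had 976 and 2341.2 (−1.26) and ACTB 3526.2 and 3823.8 (−0.12), but actin messengers share reads. CD44, a hyaluronan receptor, had 30.5 and 14.2 (1.10, below 2-fold under 3 of 9 alternatives, at the lowest 0.84).

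Where ribosomes stood along the messenger differed between the conditions over most genes. Coding bins held 84.8% of depth in the edited line and 78.1% in treated cells, the 5′ UTR 10.7% and 15.7%, and the 3′ UTR 4.53% and 6.15%. For the median gene the 5′ UTR held 6.46% of its coding depth in the edited line and 11.8% in treated cells, and the median log2 of the ratio was −0.79. For the 3′ UTR the medians were 1.57% and 2.36% and the log2 −0.615. Every 5′ UTR window of 20 bins held a smaller share of the depth in the edited line, with log2 ratios from −0.27 next to the start codon to −0.85. In the 3′ UTR the window after the stop codon was equal, at 1.91% in both, and the 4 later windows were lower in the edited line.

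**Figure D4:**
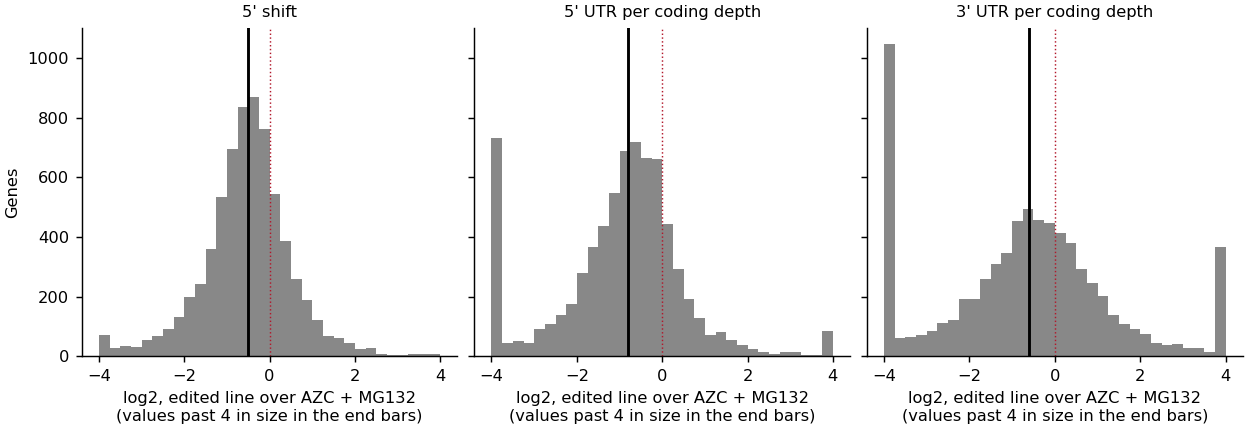
Number of genes by log2 ratio, edited line over AZC + MG132, of the 5′ shift (6789 genes), the 5′ UTR per coding depth and the 3′ UTR per coding depth (7219 genes each). The black line is the median (−0.50, −0.79 and −0.615), the dotted line 0, and values past 4 in size are in the end bars. Genes with no depth in a UTR of 1 table can lie in those bars. The shift panel leaves out 430 genes with no depth in the first 20 coding bins of 1 or both tables. In each panel the bulk of genes lies left of 0.

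Within the coding sequence the edited line was flat and treated cells sloped. With each gene scaled to its own coding mean, the edited line held 1.23 in the first 10 of 200 bins, between 0.947 and 0.99 from bin 11 to bin 190, and 1.31 in the last 10. Treated cells held 1.71 in the first 10 bins, 1.31 in the next 10, 0.986 by bins 61 to 70 and 0.826 by bins 171 to 180, with 1.12 in the last 10. The median gene's log2 ratio of scaled depth went over these windows from −0.56 to 0.31. As a measure of this slope, the 5′ share divides the mean of the first 20 coding bins by the mean of all 200. It had a median of 0.959 in the edited line and 1.42 in treated cells. The 5′ shift, the log2 ratio of the 2 shares, had a median of −0.50 over 6789 genes and was above 0 for 26.2%. It was not computed for 430 genes with no depth in the first 20 coding bins of 1 or both tables. The share itself was above 0 for 94.8% of genes in the edited line and 98.1% in treated cells.

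**Figure D5:**
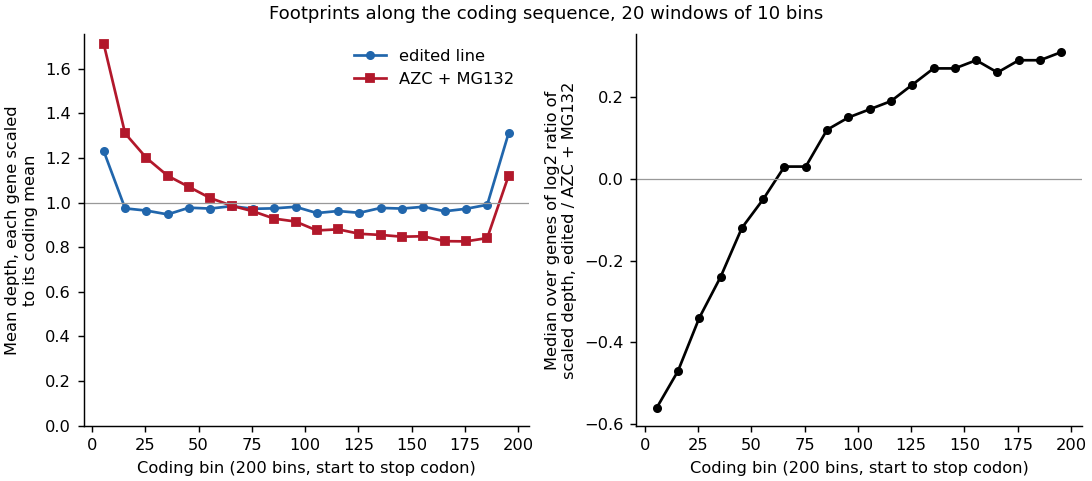
Left, mean over 7206 genes of the depth in 20 windows of 10 coding bins, each gene scaled to its coding mean, for the edited line (blue circles) and AZC + MG132 (red squares). Right, the median over genes of the log2 ratio of that scaled depth; treated cells fall from 1.71 to 0.826 before the last window while the edited line stays near 1, and the ratio goes from −0.56 to 0.31.

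The median 5′ shift was below 0 in every list. It was below 0 for 35 of 36 cytosolic chaperones, 22 of 24 aminoacyl-tRNA synthetases, 43 of 48 mitochondrial ribosomal proteins and 76 of 83 cytosolic ribosomal proteins, against 5013 of all 6789 genes. Among lists with more than 1 value the medians ran from −0.84 for the enzymes of proline and collagen to −0.05 for messengers with upstream reading frames. Among single genes the share was 0.72 in the edited line and 1.15 in treated cells for HSPA8 (shift −0.68), and 1.37 and 1.84 for EEF1A1 (−0.42). Stress messengers included the opposite case, with ATF4 at 4.99 and 1.41 (1.83) and ATF5 at 9.44 and 3.74 (1.33). In FOS the shares were 2.25 and 1.28 (0.81). Genes far from the rest had few footprints in the first bins of 1 table. GEMIN4 had shares of 0.01 and 1.22 (−6.42) and TTC1 0.04 and 1.5 (−5.08). Across genes the shift did not follow the ratio of levels (Pearson's r −0.0041, Spearman's rho −0.01), and it followed the 5′ UTR ratio weakly (0.16 and 0.23). These correlations are across genes of the same libraries.

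Genes listed in only 1 table numbered 1022 for the edited line and 299 for treated cells, of which 159 and 36 were above that table's minimum. The sources used here do not say how transcripts came to be listed, so their absence from the other table carries no fold. The highest in the edited line were PEG3, an imprinted zinc finger gene, at a level of 51.6, SYNE1, which links the nucleus to the cytoskeleton, at 33.0, and CRACR2A at 27.2. In treated cells they were FBN1, fibrillin of the matrix, at 45.3, CHAC1 at 27.1, HSPA6 at 25.4 and SH3TC2, a gene of Schwann cells, at 20.7.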

How the data were processed

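Ribosome profiling libraries of CHL-1 cells were compared as 2 deposited tables, 1 for the SNORD50A/B edited line and 1 for AZC + MG132, each made by the authors for a group of 2 libraries. The sources used here do not say how both libraries were pooled. Lysis buffer held cycloheximide, per the labels' protocols. Bowtie2, TopHat2 and build hg19 are named, per the submitters' processing notes. The deposited values are log2(x + 1), which the authors rounded to 2 decimals, in 400 bins per RefSeq transcript (1 to 100 5′ UTR, 101 to 300 coding, 301 to 400 3′ UTR, read from the values). In coding bins x was found to include the value deposited 1 row higher. After it was subtracted, 100.0% of coding bins with a log2 under 4 were whole within the rounding error in both tables, against 5.8% and 5.2% before, and it had made up 3.42% and 5.31% of coding depth. 3 summary rows at the end of each table were left out.

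Depth was 2 to the power of the value, minus 1. Gene names came from the RefSeq table of GRCh38.p14, used for names and sequences only. It left 239 and 213 transcripts unnamed, with 3.12% and 6.03% of depth, which stayed in the totals. Each gene was read from its transcript with the highest mean level over both tables, with a pseudocount of 0.5 on summed depth and minimums at the lower quartile of transcript depths. "Rescaled" means scaled to the total of the bins used. The members and gene lists were chosen with earlier results of these data known, so they support nothing independently. Named are the 15 highest and 15 lowest genes above the median level with 1 direction in both sets of 100 coding bins. Per list they are those past 2-fold, the 2 largest and the 2 most abundant, and 2 by position. To these come the 5 highest and 5 lowest by position, the 6 highest genes listed in 1 table and a fixed set. Further list members are named beside them to show a list's range, and were chosen after their values were seen. The steps were tested on simulated tables with known folds (Python 3.11.15, numpy 2.4.6, pandas 2.3.3). Alternatives concerned scaling, pseudocount, minimum, transcripts and bins. Some genes that the rule would name are not reported here.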

Additional observations from a re-analysis of the deposited data

How the results depend on the processing

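All of these values come from 1 table per condition, so an alternative shows the effect of processing and nothing of the spread between cultures. No paired analysis was possible because each condition has 1 pooled table and no test was made; for the same reason no library could be left out. The genes past 2-fold, higher in the edited line and higher in treated cells, numbered 647 and 512 with no level minimum, 57 and 33 with a minimum 4 times higher, and 199 and 69 where at least 100 coding bins had depth in both tables. From the last 100 coding bins alone, an alternative chosen after seeing the data, they numbered 530 and 490. These changes follow the genes and bins entered. The other 6 alternatives stayed within 1.5 times, from 209 to 333 and from 149 to 228. Scaling to the median ratio gave 259 and 211, and the total without the most abundant 1% of rows 256 and 217. The median 5′ shift ran from −0.53 to −0.41 and the median 5′ and 3′ UTR ratios from −0.84 to −0.68 and −0.65 to −0.42, all in the same direction. Of 72 named genes past 2-fold, 56 stayed so under every alternative that gave a value and 0 changed sign. Of 33 list medians (the 32 lists and all ribosomal proteins), 23 kept their sign; those of the translation factors (0.02), nuclear respiratory chain (0.02) and mitochondrial ribosome (0.0051) changed it with either other scaling. Amino acid content was planned and not run, since no protein sequences were among the references used here. At low levels ratios rest on few covered bins, and how many distinct fragments lie behind them is not known.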

Other observations

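Several groups chosen as housekeeping or growth programs lay close to the all-gene median of 0.06. The 31 cell cycle genes compared had a median log2 ratio of 0.08 with 0 past 2-fold, beside 6.51% of all genes. TOP2A, the topoisomerase of dividing cells, had levels of 657 in the edited line and 655 in treated cells, and CENPF, a kinetochore protein, 376 and 571 (log2 ratio −0.60). The 18 glycolysis genes had a median of 0.11, with GAPDH at 2710.5 and 2179.2 (0.31) and LDHA, lactate dehydrogenase, at 790 and 527 (0.58). Genes of small nucleolar ribonucleoproteins and ribosome biogenesis, 30 in all, had a median of −0.04 and 0 past 2-fold (all genes, 6.51%). FBL, the methyltransferase that box C/D RNAs guide, had 116 and 120 (−0.05), and NOP58 129 and 143 (−0.14). NOP56, another core protein, had 188 in treated cells against 131 in the edited line (−0.52). GAR1, of the other class of small nucleolar ribonucleoproteins, had 26.9 and 49.8 (−0.88).

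The 23 genes of ribosome and nascent chain quality control had a median of 0.16 and 0 past 2-fold (all genes, 6.51%). UFD1, a cofactor of the VCP segregase, had 52.8 and 30.2 (0.81), ASCC2, of the complex that splits collided ribosomes, 25.4 and 14.7 (0.79), and USP10, a deubiquitinase, 23.8 and 40.6 (−0.77). Splicing factors of the SR and hnRNP families had a median of −0.02 over 31 genes. SRSF2 had 221 and 358 (−0.70) and SRSF5 33.7 and 62.0 (−0.88), while SRSF4 had 111 and 65.5 (0.76). Oxidative stress genes had a median of −0.02 over 20, with PRDX1, a peroxiredoxin, at 297 and 497 (−0.74) and NQO1, a quinone reductase, at 34.4 and 63.6 (−0.89). Nothing here was tested.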
